A study of Mus musculus with 12 samples.

Results

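The genes described here are 10 members of the machinery that folds proteins in the endoplasmic reticulum (ER): Hspa5, Hsp90b1, Calr, Pdia3, Pdia4, Pdia6, Ero1a, Xbp1, Dnajb9 and Herpud1. They were taken by gene symbol, or by the older symbol Ero1l for Ero1a, from the annotation of an Illumina mouse bead array, and are 10 of the 10873 genes that could be tested. The array carries 15 probes for them, of which 13 were bright enough on both arrays of at least 1 group. All 10 genes were therefore tested, but Ero1a passed only through the TAp73-/- cells kept at low oxygen.

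Proteins that enter the ER are held by chaperones while they fold, and protein disulfide isomerases form and rearrange their disulfide bonds. When unfolded proteins accumulate, sensors in the ER membrane start the unfolded protein response: IRE1 splices the Xbp1 mRNA, ATF6 is cut free, and both yield transcription factors that raise chaperone and degradation genes. Fibroblasts secrete large amounts of matrix protein and use this machinery heavily, and lack of oxygen is a known disturbance of disulfide formation.

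The cells were mouse embryonic fibroblasts (MEFs), cultured in medium with serum. TAp73-/- cells lack TAp73, the class of p73 isoforms with the transactivation domain, and TAp73+/+ cells served as their control. Each genotype was studied after 4 h and 8 h of hypoxia (1% oxygen) and without treatment (21% oxygen), with 2 arrays in each of the 6 groups and 12 in all. Strain, age of the embryos and the number of MEF lines per genotype are not given in the labels, so genotype and cell line cannot be told apart. Nor do they say whether the 2 arrays of a group come from separate cultures, and p-values then measure only the spread between these arrays.

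Between 42.8% and 44.5% of probes were detected on each array, and the 2 arrays of a group correlated at r = 0.991 to 0.997 across probes. Of 8 fibroblast markers, Vim, Thy1 and Fn1 were detected on all 12 arrays, Pdgfrb on 11 and Col3a1 on 1, but Col1a1, Col1a2 and Lum on none. Of 4 epithelial markers, Cdh1 and Krt18 were detected on all 12 and Krt8 on 11, while Epcam was not detected. Ptprc and Adgre1 of macrophages, Pecam1 of endothelium and Myod1 and Acta1 of muscle were not detected on any array. Other markers of these cell types were: Csf1r of macrophages was detected on 8 arrays, while Cd68 had no probe. Kdr, Cdh5 and Tek of endothelium were detected on 7, 3 and 1, and Des and Myog of muscle on 12 and 10. The summed log2 signal of the fibroblast list was 55.2 to 56.4 on TAp73-/- arrays and 52.2 to 53.9 on TAp73+/+ arrays, and that of the epithelial list was 32.2 to 32.7 on TAp73-/- and 30.1 to 30.6 on TAp73+/+ arrays. Both sums moved with genotype, and their part in the results was not tested. In such bulk samples, fewer cells of a type and less RNA per cell cannot be told apart. The Trp73 probe was detected on 5 of 6 TAp73-/- arrays and 0 of 6 TAp73+/+ arrays. The position of this probe in the gene was not analysed here, and it therefore does not check the genotype labels.

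Arrays also differed along a common pattern in how several probes of a gene deviate from that gene's mean, summarised as a score per array. The untreated TAp73+/+ arrays stood apart, with scores of 0.59 and 0.386, against -0.101 and -0.133 for untreated TAp73-/- arrays. At 4 h the scores were -0.363 and -0.365 in TAp73-/- and -0.076 and -0.104 in TAp73+/+ cells, and at 8 h -0.236 and -0.0934 in TAp73-/- and 0.193 and 0.302 in TAp73+/+ cells. Counts of called genes among the 10 are therefore also given with this score in the model, while those of the other gene lists are without it.

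**Figure D1:**
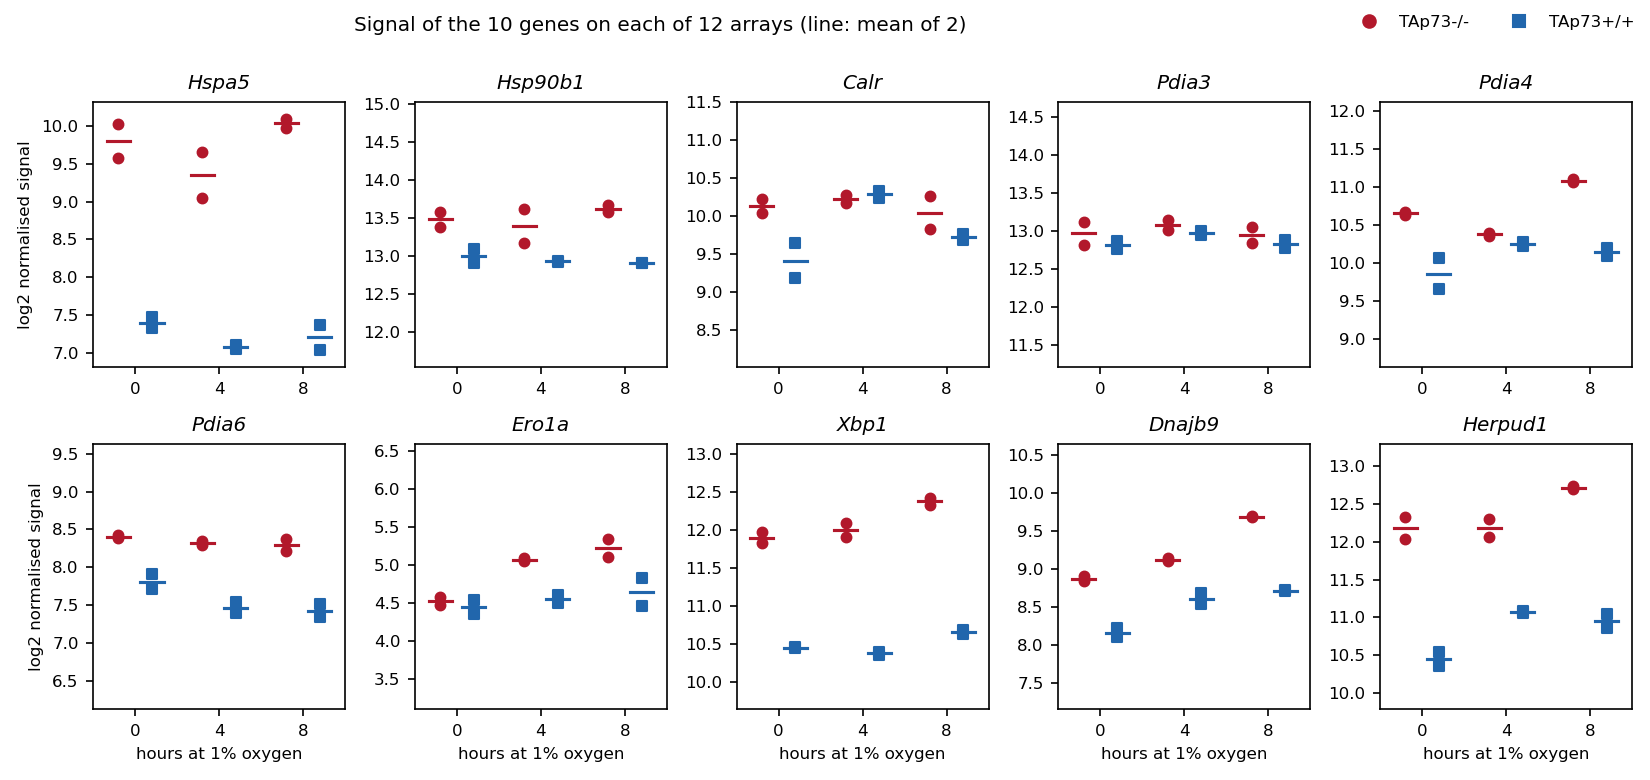
Log2 normalised signal (vertical axis, spanning the same range in every panel) of the 10 ER genes on each of the 12 arrays against hours at 1% oxygen, with 0 for untreated cells; circles are TAp73-/- arrays, squares TAp73+/+ arrays and lines the mean of 2 arrays. The circles of Hspa5, Hsp90b1, Pdia4, Pdia6, Xbp1, Dnajb9 and Herpud1 all lie above the squares, those of Calr, Pdia3 and Ero1a do not, and levels of different genes are not comparable because their probes differ.

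The first question was how the genotypes differ in these genes at each time. The Ero1a probe was detected only on hypoxic TAp73-/- arrays and passed the filter on detection only through them, so that it had to differ there. Its calls are counted but support nothing. Each count it enters, except those with an array left out, is also given over the other 9 genes. That choice was made after seeing the data. Of the 10 genes, 8 were higher in untreated TAp73-/- cells, 7 were higher at 4 h and 8 were higher at 8 h (of the 9 without Ero1a, 8, 6 and 7), and none was lower (limma, Benjamini-Hochberg adjusted p below 0.05 over all genes within a comparison). Among all genes tested, 38.4% passed in either direction in untreated cells, 36.5% at 4 h and 36.3% at 8 h, and 18%, 18.5% and 18.2% were higher in TAp73-/- cells. The median log2 difference of the 9 genes was 0.72 in untreated cells, 0.52 at 4 h and 0.94 at 8 h, and that of all genes tested was -0.03, -0.03 and -0.01. Hspa5, Hsp90b1, Pdia6, Xbp1, Dnajb9 and Herpud1 were called at all 3 times, Pdia4 and Ero1a at 2, Calr at 1 and Pdia3 at none. For 7 of the 10 genes, all 6 TAp73-/- arrays lay above all 6 TAp73+/+ arrays, as they did for 10.6% of all genes. With the score in the model, 4 of the 10 were called at 4 h (Hspa5, Pdia6, Xbp1 and Herpud1), 4 at 8 h (Hspa5, Pdia4, Xbp1 and Herpud1) and 0 in untreated cells, where the median standard error of the 10 genes was 0.40. Of all genes, that model called 12.5% at 4 h, 5.11% at 8 h and 1.59% in untreated cells.

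**Figure D2:**
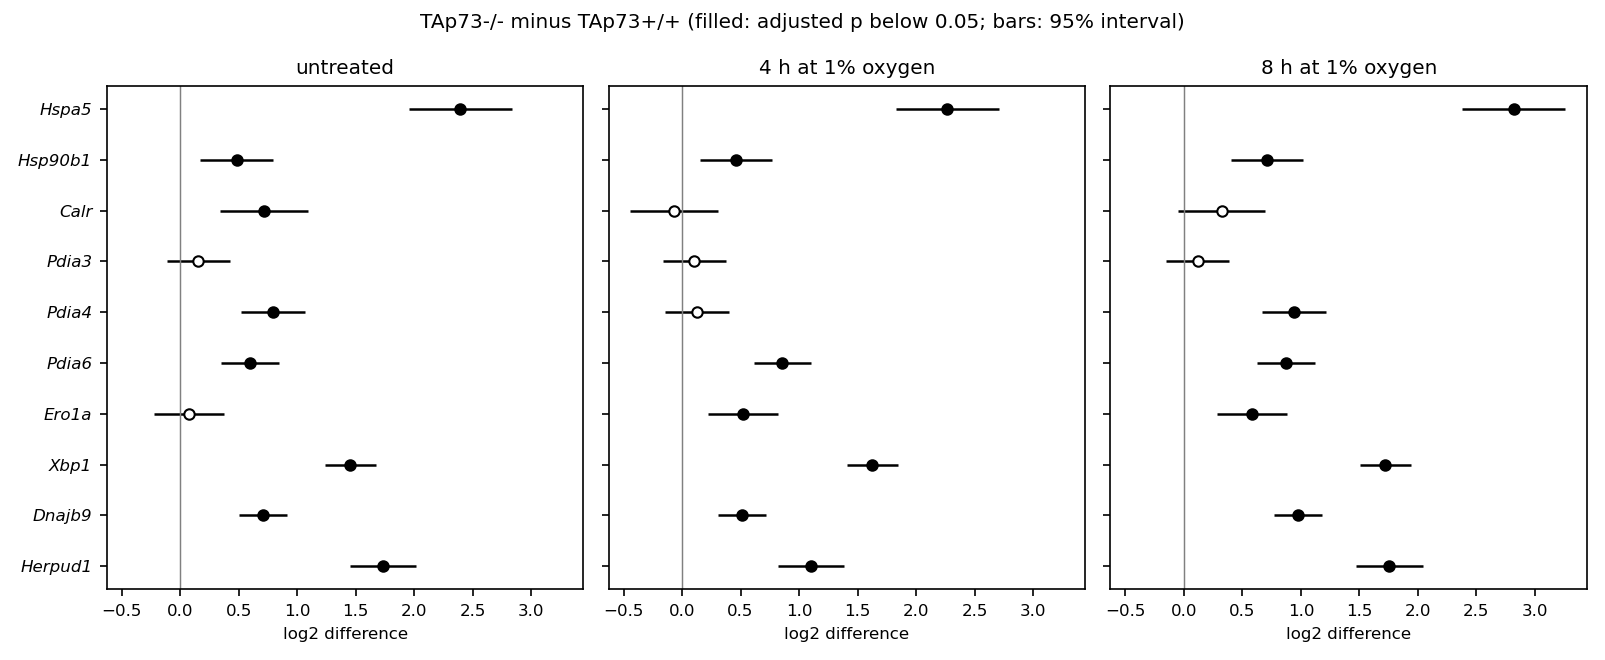
Log2 difference, TAp73-/- minus TAp73+/+, of the 10 ER genes in untreated cells, at 4 h and at 8 h of 1% oxygen, with 95% intervals of the fit; filled points passed an adjusted p of 0.05 and open points did not. Hspa5 shows the greatest difference in all 3 panels (2.39, 2.27 and 2.82), and Xbp1 and Herpud1 follow; the Ero1a probe, filled at 4 h and 8 h, was not detected in TAp73+/+ cells and was tested only because of its signal in hypoxic TAp73-/- cells.

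Hspa5 encodes BiP, the main ATP-driven chaperone of the ER, which also binds the stress sensors. Its log2 signal in TAp73-/- cells was 10.02 and 9.57 without treatment, then 9.05 and 9.65 after 4 h, then 9.97 and 10.09 after 8 h. The corresponding TAp73+/+ arrays read 7.48 and 7.33, then 7.10 and 7.06, then 7.38 and 7.04. The lowest TAp73-/- array (9.05) was above the highest TAp73+/+ array (7.48), so the genotypes did not overlap at any time. The difference was 2.39 ± 0.20 (SE, n = 2 per group; 5.26-fold; limma adjusted p = 7.11e-06) in untreated cells. After 4 h it was 2.27 ± 0.20 (4.81-fold; adjusted p = 1.21e-05), and after 8 h 2.82 ± 0.20 (7.06-fold; adjusted p = 2.03e-06). Adding the score to the model gave an untreated difference of 2.60 with an adjusted p of 0.111.

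The promoter of Hspa5 is a classic model of the ER stress response element (ERSE), which is read by ATF6 together with the CCAAT-binding factor NF-Y. The sequence is shown because Hspa5 differed most; it is the RefSeq window on build GRCm38.p6 at chr2:34771840-34772139, plus strand, from 250 bases before to 50 bases after the annotated start of the gene. Capitals mark the match to the ERSE, searched on both strands as CCAAT and CCACG with 9 bases between them, whose first base is at position -65 with the start base counted as 1.
Hspa5: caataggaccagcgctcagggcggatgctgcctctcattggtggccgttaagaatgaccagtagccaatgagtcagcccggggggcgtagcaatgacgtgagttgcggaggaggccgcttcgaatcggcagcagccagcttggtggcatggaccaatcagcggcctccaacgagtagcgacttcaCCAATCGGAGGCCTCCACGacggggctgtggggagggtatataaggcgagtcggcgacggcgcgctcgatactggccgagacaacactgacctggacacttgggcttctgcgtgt

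Hsp90b1 encodes the ER form of HSP90, a chaperone of integrins and secreted proteins. It read 13.59 and 13.39 in untreated TAp73-/- cells against 12.91 and 13.10 in untreated TAp73+/+ cells, and at 4 h 13.17 and 13.62 in TAp73-/- against 12.94 and 12.93 in TAp73+/+ cells. At 8 h it read 13.58 and 13.67 in TAp73-/- against 12.92 and 12.91 in TAp73+/+ cells. The genotypes did not overlap, although the lowest TAp73-/- array (13.17) was close to the highest TAp73+/+ array (13.10). The difference was 0.48 ± 0.14 (adjusted p = 0.0194) untreated, with 0.46 ± 0.14 (adjusted p = 0.0259) after 4 h and 0.71 ± 0.14 (1.64-fold; adjusted p = 0.00285) after 8 h. The untreated call was lost without untreated TAp73+/+ replicate 1 (difference 0.39) or TAp73-/- replicate 1 (0.38). The 4 h call was lost without either TAp73+/+ array at 4 h (0.47 and 0.46) or without TAp73-/- replicate 2 (0.24).

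Calr encodes calreticulin, a lectin chaperone that binds glycoproteins and calcium. Its signal was 10.04 and 10.22 in untreated TAp73-/- cells and 9.18 and 9.64 in untreated TAp73+/+ cells. At 4 h it was 10.27 and 10.17 in TAp73-/- and 10.33 and 10.24 in TAp73+/+ cells, and at 8 h 10.27 and 9.82 in TAp73-/- and 9.69 and 9.76 in TAp73+/+ cells. Calr was thus low on the untreated TAp73+/+ arrays, and the genotypes overlapped at 4 h. The untreated difference was 0.72 ± 0.17 (1.64-fold; adjusted p = 0.00717). It was -0.07 (95% interval -0.44 to 0.30; adjusted p = 0.775) at 4 h and 0.32 (-0.05 to 0.70; adjusted p = 0.161) at 8 h. The untreated call was lost without TAp73+/+ replicate 1 (0.49) or TAp73-/- replicate 2 (0.62), and its sign turned with the score in the model (-0.50; adjusted p = 0.616). The second Calr probe was not detected on any array.

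The windows of Hsp90b1 and Calr are shown because each holds an ERSE match although the genes differed by less than Hspa5. That of Hsp90b1 lies at chr10:86705395-86705694, minus strand, with matches at -212 and, on the reverse strand, at -107. That of Calr lies at chr8:84846882-84847181, minus strand, with a match on the reverse strand at -162. Capitals mark these matches, and reverse-strand matches are printed as they read in the window.
Hsp90b1: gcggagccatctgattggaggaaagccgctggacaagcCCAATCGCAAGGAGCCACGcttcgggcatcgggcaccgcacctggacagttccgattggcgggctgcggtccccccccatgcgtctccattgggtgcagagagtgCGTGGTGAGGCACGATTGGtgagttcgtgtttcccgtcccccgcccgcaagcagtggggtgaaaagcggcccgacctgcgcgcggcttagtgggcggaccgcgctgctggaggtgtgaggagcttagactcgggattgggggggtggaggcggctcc
Calr: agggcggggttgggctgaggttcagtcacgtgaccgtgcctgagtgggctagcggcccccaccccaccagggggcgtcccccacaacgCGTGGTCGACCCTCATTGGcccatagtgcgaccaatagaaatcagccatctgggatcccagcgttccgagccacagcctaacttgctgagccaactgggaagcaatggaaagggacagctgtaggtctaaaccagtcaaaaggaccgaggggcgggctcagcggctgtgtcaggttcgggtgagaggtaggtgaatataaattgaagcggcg

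Pdia4, a disulfide isomerase with chaperone activity, read 10.67 and 10.63 in untreated TAp73-/- cells against 10.07 and 9.65 in untreated TAp73+/+ cells, and at 4 h 10.40 and 10.36 in TAp73-/- against 10.23 and 10.28 in TAp73+/+ cells. At 8 h it read 11.10 and 11.07 in TAp73-/- against 10.09 and 10.20 in TAp73+/+ cells. The genotypes nearly met at 4 h and were far apart at 8 h. The difference was 0.79 ± 0.13 (1.73-fold; adjusted p = 0.000694) untreated, 0.13 (95% interval -0.15 to 0.40; adjusted p = 0.453) at 4 h and 0.94 ± 0.13 (1.92-fold; adjusted p = 0.000232) at 8 h.

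Pdia6, another isomerase of the ER, read 8.42 and 8.39 in untreated TAp73-/- cells against 7.71 and 7.91 in untreated TAp73+/+ cells. At 4 h it read 8.30 and 8.35 in TAp73-/- against 7.54 and 7.39 in TAp73+/+ cells, and at 8 h 8.38 and 8.22 in TAp73-/- against 7.34 and 7.51 in TAp73+/+ cells. No TAp73+/+ array reached the TAp73-/- arrays, and the difference was 0.60 ± 0.11, 0.86 ± 0.11 and 0.87 ± 0.11 in that order of times (adjusted p = 0.00197, 0.000213 and 0.00018). Its second probe differed by 0.25 (adjusted p = 0.3, over all probes) untreated, 0.37 (0.136) at 4 h and 0.58 (0.0295) at 8 h, so the probes agreed in sign but only the 8 h difference was called by both.

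Pdia3, the isomerase that works on glycoproteins bound by calreticulin, ranged from 12.82 to 13.14 over TAp73-/- arrays and from 12.76 to 13.00 over TAp73+/+ arrays. These ranges overlapped, although the 4 h arrays alone did not. The differences of 0.16, 0.11 and 0.12 were not called (adjusted p = 0.344, 0.527 and 0.474), and the widest of their 95% limits was 0.43.

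Ero1a encodes the oxidase that passes electrons from the isomerases to oxygen. Its probe was detected on both TAp73-/- arrays at 4 h (5.06 and 5.09) and at 8 h (5.11 and 5.35). It was not detected on the untreated TAp73-/- arrays (4.58 and 4.48) or on any TAp73+/+ array (4.54 and 4.36 untreated, 4.50 and 4.61 at 4 h, 4.83 and 4.46 at 8 h). Detection thus separated hypoxic TAp73-/- cells from the other 4 groups, at signals close to the limit of detection. In TAp73-/- cells at 8 h it was at least 1.13-fold higher than in TAp73+/+ cells, measured against the lowest detected signal of the dimmer arrays, while at 4 h the signal of TAp73-/- cells did not exceed that limit by a measurable fold. The 4 h call was lost without TAp73+/+ replicate 1 or TAp73-/- replicate 2 at 4 h, and the 8 h call without replicate 2 of either genotype at 8 h. A second Ero1a probe was not detected on any array.

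The window of Pdia6 (chr12:17266339-17266638, plus strand) also holds an ERSE match, at -98, and is printed with that match in capitals as the fourth member with one. No match was found in the windows of Pdia3, Pdia4 and Ero1a.
Pdia6: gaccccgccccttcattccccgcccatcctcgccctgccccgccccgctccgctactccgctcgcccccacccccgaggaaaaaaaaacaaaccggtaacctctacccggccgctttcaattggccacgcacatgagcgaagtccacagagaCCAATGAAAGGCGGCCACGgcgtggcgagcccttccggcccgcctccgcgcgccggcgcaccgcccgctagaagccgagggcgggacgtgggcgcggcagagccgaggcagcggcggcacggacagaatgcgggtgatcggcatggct

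Xbp1, Dnajb9 and Herpud1 are described together as the Xbp1 branch of the response. Which sensor acts on their transcript levels was not tested. Xbp1 encodes the transcription factor made from the spliced mRNA; the array reads the transcript level and not its splicing. Its signal in TAp73-/- cells was 11.98 and 11.83 without treatment, then 12.09 and 11.92 after 4 h, then 12.43 and 12.33 after 8 h. In TAp73+/+ cells it was 10.46 and 10.45 without treatment, then 10.36 and 10.40 after 4 h, then 10.64 and 10.68 after 8 h. All TAp73-/- arrays stood more than a full log2 unit above all TAp73+/+ arrays. The difference was 1.45 ± 0.10 (2.74-fold; adjusted p = 1.51e-06) untreated, 1.63 ± 0.10 (3.09-fold; adjusted p = 6.25e-07) at 4 h and 1.72 ± 0.10 (3.3-fold; adjusted p = 3.7e-07) at 8 h. The untreated difference was 1.43 in the model with the score (adjusted p = 0.0715).

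Herpud1, an ER membrane protein that helps to assemble the degradation complex, read 12.33 and 12.04 in untreated TAp73-/- cells, then 12.07 and 12.29 after 4 h, then 12.73 and 12.69 after 8 h. Its TAp73+/+ values were 10.36 and 10.55 without treatment, then 11.09 and 11.06 after 4 h, then 11.05 and 10.86 after 8 h. The genotypes were separate at each time and closest at 4 h. The difference was 1.73 ± 0.13 (3.32-fold; adjusted p = 3e-06) untreated, 1.10 ± 0.13 (2.15-fold; adjusted p = 0.000101) at 4 h and 1.76 ± 0.13 (3.38-fold; adjusted p = 2.68e-06) at 8 h. The second Herpud1 probe gave 2.05, 1.25 and 2.14, all called. The untreated difference of the first probe was 1.28 once the score was included (adjusted p = 0.186).

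Dnajb9, a co-chaperone of BiP that in mammals holds BiP on IRE1, read 8.84 and 8.90 in untreated TAp73-/- cells, then 9.10 and 9.15 after 4 h, then 9.68 and 9.70 after 8 h. Its TAp73+/+ values were 8.11 and 8.22 without treatment, then 8.54 and 8.68 after 4 h, then 8.73 and 8.70 after 8 h. Both genotypes showed higher values at later times, and the lowest TAp73-/- array (8.84) was above the highest TAp73+/+ array (8.73). The difference was 0.71 ± 0.09 (1.63-fold; adjusted p = 0.000213), 0.52 ± 0.09 (1.43-fold; adjusted p = 0.0018) and 0.97 ± 0.09 (1.96-fold; adjusted p = 2.09e-05) in that order of times. Its second probe gave 0.93, 0.69 and 1.2, all called.

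The windows of Herpud1 and Xbp1 are shown as the contrasting pair of this branch. Herpud1 (chr8:94386179-94386478, plus strand) holds a match to ERSE-II, searched as ATTGG and CCACG with 1 base between them and known from the human gene, at -52. The window of Xbp1 (chr11:5520391-5520690, plus strand) holds none of the motifs searched, and is printed without capitals. Sequence outside these 250 bases before to 50 bases after the annotated start was not searched, so an element there would be missed.
Herpud1: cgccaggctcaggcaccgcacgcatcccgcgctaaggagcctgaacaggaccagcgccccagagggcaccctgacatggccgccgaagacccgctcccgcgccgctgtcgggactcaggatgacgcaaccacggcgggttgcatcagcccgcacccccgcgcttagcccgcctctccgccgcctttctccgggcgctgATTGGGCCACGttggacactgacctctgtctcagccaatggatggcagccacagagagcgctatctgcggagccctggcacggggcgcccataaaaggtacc
Xbp1: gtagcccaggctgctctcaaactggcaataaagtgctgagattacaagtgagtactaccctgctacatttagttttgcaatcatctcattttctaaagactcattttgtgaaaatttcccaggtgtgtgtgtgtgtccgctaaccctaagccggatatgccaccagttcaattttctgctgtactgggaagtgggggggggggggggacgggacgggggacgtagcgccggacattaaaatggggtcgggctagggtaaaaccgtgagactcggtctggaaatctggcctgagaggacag

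Over the 10 windows, 4 held an ERSE (Hspa5, Hsp90b1, Calr and Pdia6), against 0.119% of all 32851 RefSeq promoter windows of that length. ERSE-II was found in 1 of 10 (Herpud1) and in 0.0365% of all windows. The Hspa5 promoter is a classic model of the ERSE, and ERSE-II is known from the human Herpud1 gene. Finding these motifs there is no independent result, and the shares test no enrichment. The core of the unfolded protein response element, spelled TGACGTGG, was found in 0 of 10 and in 0.676% of all windows. The short core CCACG, which is part of both ERSE forms, occurred in 8 of 10 windows and in 32.8% of all. The core letters of hypoxia response elements, searched as ACGTG and GCGTG, occurred in 6 and 7 of the 10 and in 19.6% and 32.4% of all, and several of those matches overlap CCACG on the other strand. A match describes letters only, and gives no evidence of binding. Genes with an ERSE match in the window differed between genotypes by as much as 2.39 (Hspa5) and as little as 0.48 (Hsp90b1) in untreated cells. Xbp1, with no match inside its window, differed by 1.45.

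**Figure D3:**
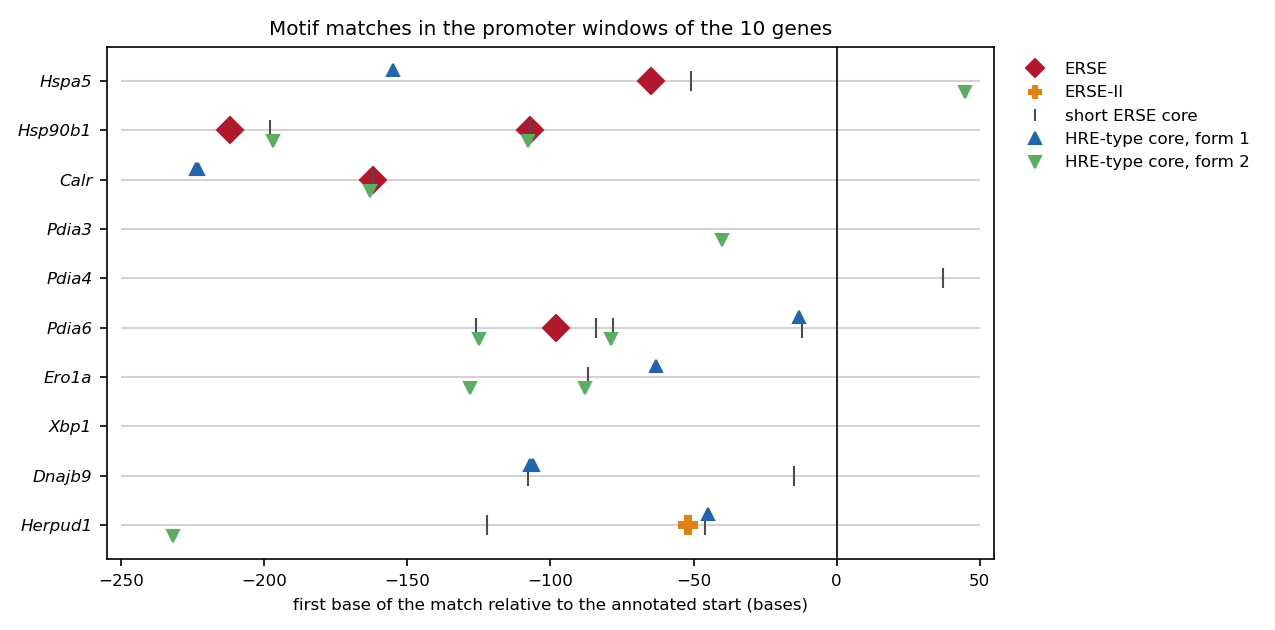
Position of motif matches in the promoter windows of the 10 ER genes, in bases from the annotated start (vertical line), with 1 row per gene; symbols mark the ERSE, ERSE-II, the short ERSE core and both spellings of the core of hypoxia response elements. ERSE matches lie between -212 and -65 in 4 rows, the single ERSE-II match at -52 in the Herpud1 row, and the Xbp1 row is empty.

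The second question was how low oxygen changed these genes in each genotype. Among 15 well-known hypoxia-inducible genes, 11 rose in TAp73-/- cells at 4 h and 14 at 8 h, and 13 rose at each time in TAp73+/+ cells, with no falls. Beside this, 3.13% and 10.6% of all genes rose in TAp73-/- cells, and 12% and 11.6% in TAp73+/+ cells. Bnip3, in this list, was detected on no TAp73+/+ array at 4 h or 8 h. It passed the filter only through hypoxic TAp73-/- arrays, so any call of it there supports nothing. Vegfa, an angiogenic factor, rose by 1.57 and 1.42 in TAp73-/- cells at 4 h and 8 h and by 1.74 and 1.79 in TAp73+/+ cells.

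In TAp73-/- cells at 4 h, 1 of the 10 ER genes was called and 0 of the 9 without Ero1a (2 of the 9 had an unadjusted p below 0.05), where 6.96% of all genes were, 3.13% higher and 3.84% lower. The call was that of Ero1a, described by its bound alone, at least 1.05-fold higher than in untreated cells. Hspa5 was 0.45 lower (95% interval -0.89 to -0.01; adjusted p = 0.204), Pdia4 0.27 lower (-0.55 to 0.01; adjusted p = 0.223) and Herpud1 differed by -0.003 (-0.29 to 0.28), none of which passed. With the score in the model 0 of the 10 were called, and 0.773% of all genes.

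After 8 h in TAp73-/- cells, 5 of the 10, or 4 of the 9 without Ero1a, were called higher and none fell, where 20.9% of all genes were called, 10.6% higher and 10.2% lower. Dnajb9 rose by 0.82 ± 0.09 (1.77-fold; adjusted p = 0.000227), with hypoxic arrays at 9.68 and 9.70 against untreated arrays at 8.84 and 8.90. Herpud1 rose by 0.53 ± 0.13 (1.44-fold; adjusted p = 0.0152), Xbp1 by 0.48 ± 0.10 (1.39-fold; adjusted p = 0.0072) and Pdia4 by 0.43 ± 0.13 (1.35-fold; adjusted p = 0.0321). The groups did not overlap for any of these 4, nor for Pdia6, which was not called. The share of all genes without such overlap was not counted. Ero1a, which had to differ, was at least 1.16-fold higher. The same 5 genes (4 of the 9 without Ero1a) were called with the score in the model, which called 21.4% of all genes. Dnajb9 was called whichever array was left out. Herpud1 was lost without untreated replicate 2 (0.39) or either array at 8 h (0.51 and 0.55), Xbp1 without untreated replicate 2 (0.40) or replicate 1 at 8 h (0.43), and Pdia4 without any 1 of the 4 arrays compared (0.41 to 0.45) or either TAp73+/+ array at 4 h (0.43). Hspa5 (0.23, 95% interval -0.21 to 0.67), Hsp90b1 (0.14), Calr (-0.08), Pdia3 (-0.02) and Pdia6 (-0.11) were not called.

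Between 4 h and 8 h, 4 of the 10 rose in TAp73-/- cells, where 10.6% of all genes were called, 6.75% higher and 3.84% lower. Pdia4 rose by 0.70 ± 0.13 (1.63-fold; adjusted p = 0.00995), Dnajb9 by 0.56 ± 0.09 (1.48-fold; adjusted p = 0.00793), Herpud1 by 0.53 ± 0.13 (1.44-fold; adjusted p = 0.0273) and Xbp1 by 0.38 ± 0.10 (1.3-fold; adjusted p = 0.0372). Hspa5 differed by 0.68 (95% interval 0.24 to 1.12), with 9.97 and 10.09 at 8 h against 9.05 and 9.65 at 4 h, and just missed the threshold (adjusted p = 0.053). Without TAp73-/- replicate 2 at 8 h, Pdia4 (0.72), Dnajb9 (0.56), Herpud1 (0.55) and Xbp1 (0.43) were all lost. Pdia4 was also lost without replicate 1 at 8 h (0.69) or replicate 2 at 4 h (0.68), and Herpud1 without replicate 1 at 8 h (0.51) or either array at 4 h (0.42 and 0.65). Xbp1 was lost without replicate 1 at 8 h (0.33), replicate 2 at 4 h (0.29) or any TAp73+/+ array at 4 h or 8 h (0.38), and also when every probe was tested on its own (adjusted p = 0.0574). With the score in the model 0 of the 10 were called, and 0.11% of all genes.

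In TAp73+/+ cells at 4 h, 4 of the 10 rose and 1 fell, where 28% of all genes were called, 12% higher and 16% lower. Calr rose by 0.88 ± 0.17 (1.84-fold; adjusted p = 0.00399), with 10.33 and 10.24 at 4 h against 9.18 and 9.64 untreated. Herpud1 rose by 0.62 ± 0.13 (1.54-fold; adjusted p = 0.00544), Dnajb9 by 0.45 ± 0.09 (1.36-fold; adjusted p = 0.00579) and Pdia4 by 0.40 ± 0.13 (1.31-fold; adjusted p = 0.0372). Pdia6 fell by 0.34 on the log2 scale (adjusted p = 0.041), while its second probe differed by -0.19 (adjusted p = 0.452). None of these 5 genes overlapped between the groups, but neither did Hspa5, Pdia3 and Xbp1, which were not called. The share of all genes without overlap between 2 and 2 arrays was not counted. With the score in the model 0 of the 10 were called, where 0.147% of all genes were, and Calr turned to -0.29. Calr and Herpud1 were called whichever array was left out; Dnajb9 was lost without replicate 2 at 4 h (0.38). Pdia4 was lost without untreated replicate 2 (0.19), either array at 4 h (0.42 and 0.37), any array at 8 h of either genotype or either untreated TAp73-/- array (0.40), and with no detection filter. Pdia6 was lost without untreated replicate 2 (-0.24), either array at 4 h (-0.42 and -0.27) or either untreated TAp73-/- array (-0.34).

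At 8 h in TAp73+/+ cells, 2 of the 10 rose and 1 fell, where 23.9% of all genes were called, 11.6% higher and 12.3% lower. Dnajb9 rose by 0.55 ± 0.09 (1.47-fold; adjusted p = 0.00224) and Herpud1 by 0.50 ± 0.13 (1.42-fold; adjusted p = 0.0176). Pdia6 fell by 0.38 (adjusted p = 0.0305), but its second probe differed by 0.01 and the mean of both probes was not called. Herpud1 was lost without replicate 1 untreated (0.41) or at 8 h (0.41), and Pdia6 without untreated replicate 2 (-0.28) or either array at 8 h (-0.30 and -0.47). From 4 h to 8 h, Calr fell by 0.57 (adjusted p = 0.0493), as 1 gene of 10 where 13.8% of all were called, 8.62% higher and 5.22% lower; this call was lost without either array of either time (-0.52 to -0.61), without a TAp73-/- array untreated or at 4 h (-0.57), and with the score in the model, where the change was 0.12 and 0.046% of all genes were called. None of the 10 was called at 8 h against untreated once the score was included, where 7.09% of all genes were.

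**Figure D4:**
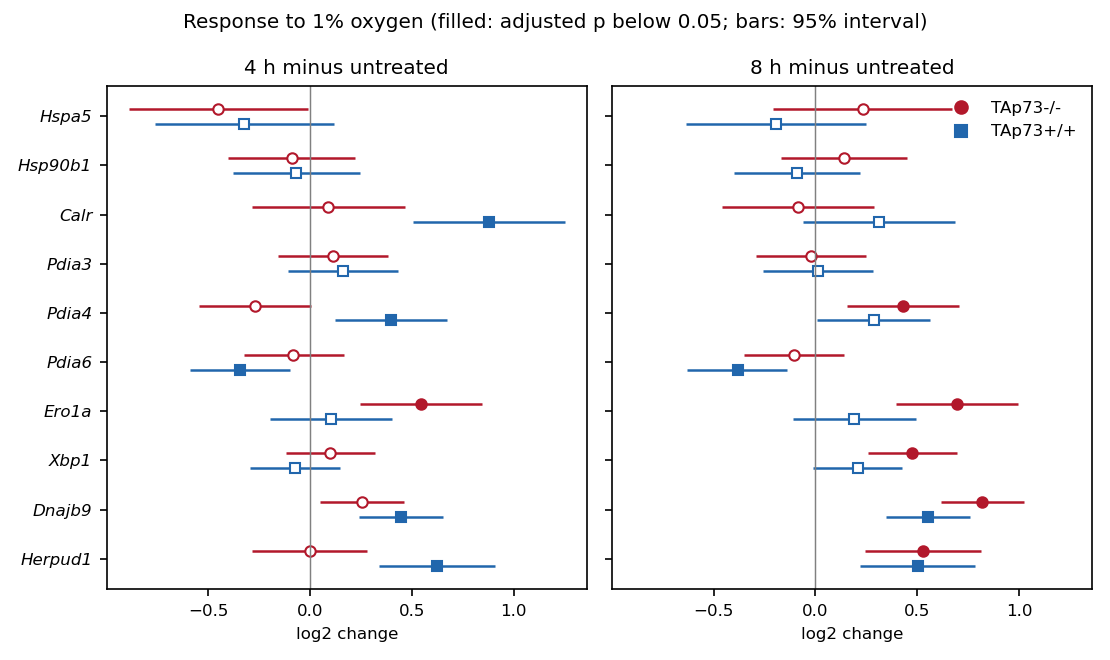
Log2 change of the 10 ER genes after 4 h (left) and 8 h (right) at 1% oxygen against untreated cells, in TAp73-/- (circles) and TAp73+/+ (squares) cells, with 95% intervals; filled symbols passed an adjusted p of 0.05. At 4 h Ero1a alone, which was tested only because of its signal in hypoxic TAp73-/- cells, is filled for TAp73-/- cells and 5 genes are filled for TAp73+/+ cells, whereas at 8 h there are 5, Ero1a among them, and 3.

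Whether the responses differed between genotypes was tested directly. At 4 h, 0 of the 10 were called, where 0.304% of all genes were (0.0828% with a higher and 0.221% with a lower response in TAp73-/- cells). At 8 h 0 of the 10 were called by limma, where 0.478% of all genes were (0.212% higher and 0.267% lower). Without adjustment, Pdia4, Herpud1 and Calr had p below 0.05 at 4 h, and 0 of the 9 genes other than Ero1a did at 8 h. With the score in the model 0 of the 10 were called at either time, against 0% of all genes at 4 h and 0.0736% at 8 h. The 4 h response of Pdia4 was lower in TAp73-/- than in TAp73+/+ cells by 0.67 (95% interval -1.06 to -0.28; adjusted p = 0.103), that of Herpud1 by 0.63 (-1.03 to -0.23; adjusted p = 0.126) and that of Calr by 0.79 (-1.32 to -0.26; adjusted p = 0.139). Hspa5 gave -0.13 (-0.75 to 0.50) at 4 h and 0.43 (-0.20 to 1.05) at 8 h, intervals that leave room for a change of either sign. These comparisons share the untreated arrays with those above.

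The other genes of ER protein handling were read from lists of further members of each step, again with limma over all genes. As the share beside each list, 18% of all genes untreated, 18.5% at 4 h and 18.2% at 8 h were higher in TAp73-/- cells. In the same order 20.4%, 18% and 18.2% were lower. Of 6 stress sensors and their processing proteases, Ern1, which encodes IRE1, was higher in TAp73-/- cells at all 3 times. It read 8.57 and 8.42 in untreated TAp73-/- cells against 7.89 and 7.75 in untreated TAp73+/+ cells, and differed by 0.68 (adjusted p = 0.0011), 1.10 (4.6e-05) and 1.00 (8.24e-05) untreated, at 4 h and at 8 h. None of the 6 was lower in untreated cells, but the site protease gene Mbtps1 was lower at 4 h (-0.43) and 8 h (-0.41). Eif2ak3, which encodes PERK, was lower at 8 h by at least 1.1-fold. At 8 h it was detected on both TAp73+/+ arrays and on neither TAp73-/- array, and it passed the filter only through TAp73+/+ arrays. It therefore had to differ, and its call supports nothing, although Eif2ak3 enters the list medians. The list median was 0.15, 0.04 and -0.20.

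Of 11 other chaperones and co-factors tested of 14 listed, 5 were higher and 1 lower in untreated TAp73-/- cells, 4 higher and 1 lower after 4 h, and 7 higher and 1 lower after 8 h. The shares higher were 45.5%, 36.4% and 63.6%, beside 18%, 18.5% and 18.2% of all genes. Sdf2l1, a partner of BiP, read 8.88 and 9.02 in untreated TAp73-/- cells against 7.56 and 7.62 in untreated TAp73+/+ cells. It differed by 1.36 (adjusted p = 9.32e-05), 0.70 (0.00631) and 1.36 (9.39e-05). Manf, which encodes a secreted protein of the ER stress response, was not detected on TAp73+/+ arrays. It passed the filter only through TAp73-/- arrays, so that it had to differ. Manf is among the genes counted as higher at each time and enters the list medians, but its calls support nothing. It was at least 1.82-fold, 1.93-fold and 1.57-fold higher in TAp73-/- cells. The 1 lower gene was Serpinh1, the collagen chaperone (-0.39, -0.45 and -0.40). List medians were 0.43, 0.24 and 0.65.

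Among 12 other isomerases and oxidases, 6 were higher and 1 lower untreated, 3 higher and 0 lower after 4 h, and 6 higher and 1 lower after 8 h. Those higher made up 50%, 25% and 50%, beside 18%, 18.5% and 18.2% of all genes. Ero1b, the second ER oxidase gene, differed by 0.93 (adjusted p = 0.000269) untreated, 0.06 (0.759) at 4 h and 0.48 (0.0141) at 8 h, and Erp44, which retains oxidases in the early secretory pathway, by 0.84, 1.12 and 0.97, all called. Txndc5 was the lower one at both times (-0.28 and -0.33). List medians were 0.37, 0.09 and 0.34.

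Of 11 tested genes of ER-associated degradation (16 listed), 6 were higher and 0 lower untreated, 6 higher and 1 lower after 4 h, and 7 higher and 0 lower after 8 h. Higher genes were 54.5%, 54.5% and 63.6% of the list, beside 18%, 18.5% and 18.2% of all genes. Os9 and Erlec1, which encode lectins that recognise misfolded glycoproteins, differed by 0.56, 0.82 and 0.86 and by 0.83, 0.98 and 0.95, all called. Edem1, a mannosidase-like protein of the same step, was not detected in untreated TAp73+/+ cells and was at least 1.82-fold higher in untreated TAp73-/- cells (adjusted p = 0.000155). List medians were 0.40, 0.42 and 0.45.

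In the list of translocon, signal peptidase and glycosylation genes, 5 of 20 were higher and 0 lower untreated, 3 higher and 2 lower after 4 h, and 4 higher and 1 lower after 8 h, and its medians were 0.11, 0.08 and 0.10. Its shares higher, 25%, 15% and 20%, were near those of all genes (18%, 18.5% and 18.2%). The signal peptidase gene Spcs2 differed most (0.96, 1.25 and 1.70, all called). For the lower genes Dad1 at 4 h (-0.48) and Ssr1 at 8 h (-0.38), another probe had the opposite sign (0.33 and 0.04).

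**Figure D5:**
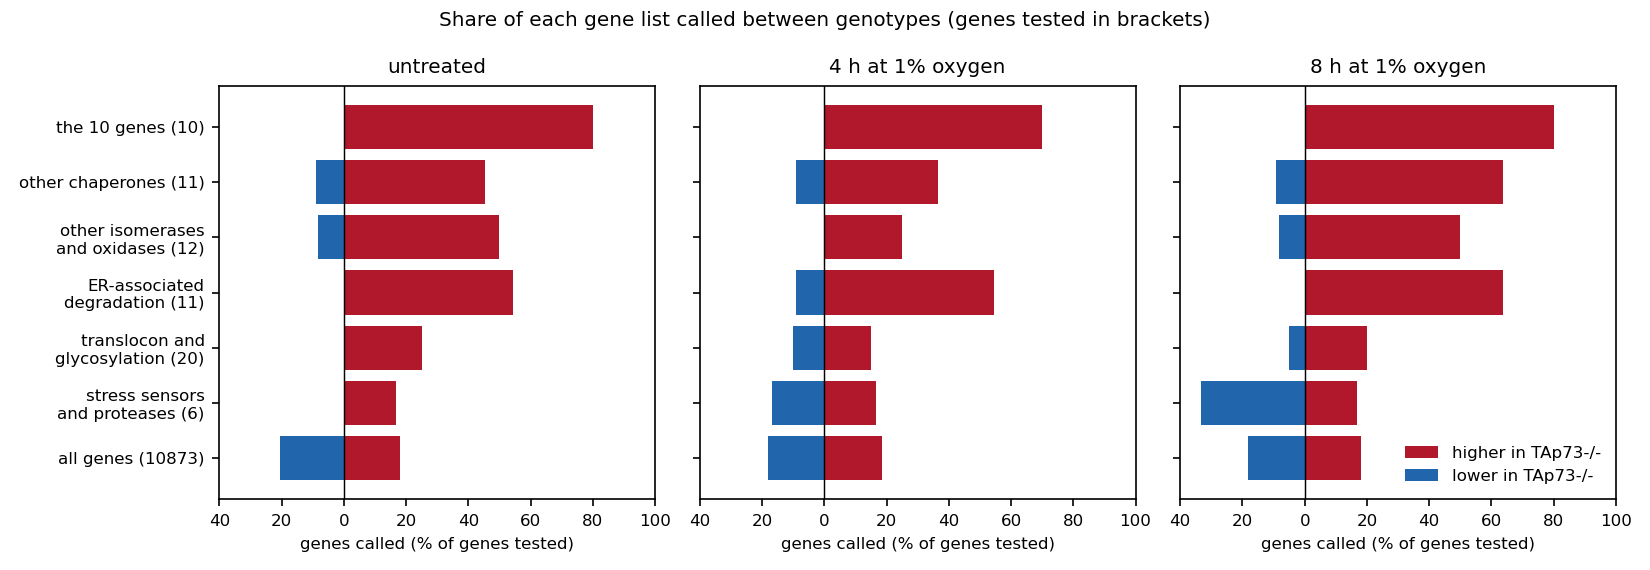
Share of genes called (percent of genes tested, in brackets the number tested) as higher (bars to the right) and lower (bars to the left) in TAp73-/- than in TAp73+/+ cells, for the 10 ER genes, 5 lists of other ER genes and all genes, untreated and after 4 h and 8 h at 1% oxygen. The 10 genes reach 80%, 70% and 80% higher with none lower, and all genes 18%, 18.5% and 18.2% higher with 20.4%, 18% and 18.2% lower. Ero1a is counted as higher at 4 h and 8 h, and of the 9 genes without it 8, 6 and 7 were higher. Manf, which passed the filter only through TAp73-/- arrays, is counted among the other chaperones. Eif2ak3, which passed only through TAp73+/+ arrays, is counted as lower at 8 h among the stress sensors.

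Of 12 genes of the neighbouring ATF4 and CHOP branch, 6 were higher and 1 lower in TAp73-/- cells untreated, 6 higher and 2 lower after 4 h, and 7 higher and 0 lower after 8 h, with medians of 0.35, 0.25 and 0.52. Ddit3, which encodes CHOP, read 10.13 and 10.03 in untreated TAp73-/- cells against 8.00 and 8.29 in untreated TAp73+/+ cells and differed by 1.94, 0.96 and 2.54 (adjusted p = 1.95e-06, 0.000406 and 2.21e-07). Of 11 cytosolic heat shock genes, 4 were higher and 1 lower in untreated TAp73-/- cells, but 1 higher and 7 lower at 4 h, and 1 higher and 5 lower at 8 h, with medians of -0.06, -0.33 and -0.45. Beside both lists, 18%, 18.5% and 18.2% of all genes were higher in TAp73-/- cells and 20.4%, 18% and 18.2% lower. The inducible gene Hspa1a differed by -2.72 at 4 h and -0.86 at 8 h, though Hspa1a and Hspa1b are nearly identical and may share signal.

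Under hypoxia, 1 gene of the 5 ER lists was called in TAp73-/- cells at 4 h, a lower one in the degradation list, where 3.13% of all genes were higher and 3.84% lower. At 8 h in TAp73-/- cells, 2 chaperones were higher and 1 lower, 2 isomerases higher and 0 lower, 1 degradation gene higher and 1 lower, and 1 sensor and 1 translocon gene lower. Of all genes, 10.6% were higher and 10.2% lower there, against 18.2% higher and 9.09% lower of the chaperones and 16.7% higher of the isomerases. In TAp73+/+ cells at 4 h, 2 sensors were higher and 1 lower, 3 chaperones higher and 2 lower, 2 isomerases higher and 1 lower, 3 degradation genes higher and 1 lower, and 1 translocon gene higher, beside 12% of all genes higher and 16% lower. The 8 h counts in TAp73+/+ cells were 1 sensor higher and 2 lower, 2 chaperones higher and 1 lower, 3 isomerases and 1 degradation gene higher, and 1 translocon gene lower, beside 11.6% and 12.3% of all genes. Sdf2l1 rose at 8 h in both genotypes, by 0.70 in each (adjusted p = 0.0104 in TAp73-/- and 0.00961 in TAp73+/+ cells). Sel1l, which encodes the scaffold of the degradation complex, rose at 8 h by 0.62 in TAp73-/- and 0.57 in TAp73+/+ cells, but of its other probes 1 of 2 in TAp73-/- and 2 of 2 in TAp73+/+ cells had the opposite sign. P4hb, the founding disulfide isomerase, rose at 8 h by 0.51 in TAp73-/- and 0.54 in TAp73+/+ cells.

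The genes whose pattern over the 12 arrays was most like that of Hspa5, by Pearson correlation of log2 signal, were H2-Bl (0.99), Adamts12 (0.99), Oas2 (0.988), Mx2 (0.987) and Xlr4a (0.986). For Ero1a they were Galr2 (0.944), Mtss1 (0.926), Unc13a (0.921), Rad52 (0.92) and Csta2 (0.915). None of these is among the 10 ER genes. The arrays form separate groups by genotype, and all points of a pair share their array. H2-Bl and Oas2 were not detected on any TAp73+/+ array. In untreated TAp73-/- cells they were at least 3.03-fold and 5.29-fold higher than in TAp73+/+ cells. Galr2 and Unc13a, like Ero1a, were detected on no array outside the hypoxic TAp73-/- groups, and Csta2 on no TAp73+/+ array. Their likeness to Ero1a thus rests largely on signals below detection and on the filter. All these correlations describe the 12 arrays and carry no test.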

How the data were processed

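Total RNA of the MEFs was labelled as biotinylated cRNA and hybridised to Illumina mouse bead arrays, per the labels' protocols. The authors deposited the average bead intensity of 45281 probes on each of 12 arrays on a linear scale, with a detection p-value per probe, per the file headers, and no scaling between arrays is recorded for them. They also deposited a normalised intensity matrix, for which the submitters' processing notes name Partek and no method; it was used as an alternative. Slides and scan dates are not given in the sources used here, so no slide block was fitted.

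Intensities were corrected and quantile normalised with neqc (limma 3.58.1 in R 4.3.3; offset 16), which gives log2 signals. The 21223 probes with a detection p-value below 0.05 on both arrays of any group were kept. Symbols came from the platform annotation, updated through the gene identifiers of RefSeq: 34885 probes had 1 symbol, 18 several and 10378 none. Where a gene had several probes, the one with the highest mean signal stood for it, leaving 10873 genes. A limma model of 6 groups with 11 contrasts was fitted to all genes, with Benjamini-Hochberg adjustment within each contrast and calls at an adjusted p below 0.05. Intervals are 95% intervals of that fit, and the number of arrays (2 per group) limits their precision. The probe score is the first principal component of how probes deviate from the mean of their gene, over 4571 genes with several probes (50.2% of the variance). Motifs were searched in the RefSeq promoter table (build GRCm38.p6). Figures were drawn with matplotlib 3.10.9 in Python 3.11.15.

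The text names all 10 genes, Trp73, Vegfa and Ddit3, up to 3 called genes each way with the greatest change in each list and comparison, and the 5 genes most correlated with Hspa5 and with Ero1a. The 10 genes and the lists were chosen with earlier results of these data known. Replicate numbers did not pair arrays: over 15 pairs of groups, deviations correlated between -0.25 and 0.125. Alternatives covered normalisation, the detection filter, the choice of probe, the score, a replicate block, the variance prior and each array left out.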

Additional observations from a re-analysis of the deposited data

Results flagged for a closer look

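None of the 10 ER genes was called by the limma test of a difference between genotypes in the response to low oxygen. Of the other genes named from the lists, 4 were, at an adjusted p below 0.05 over all genes. That test called 0.304% of all genes at 4 h and 0.478% at 8 h. With the probe score in the model it called 0 of all genes at 4 h, so every 4 h call below was lost. At 8 h that model called 0.0736% of all genes, and whether Chac1 and Hspa1b are among them is not given here.

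Trib3, a pseudokinase gene induced by ATF4 and CHOP, rose at 4 h by 0.59 in TAp73-/- cells and by 2.28 in TAp73+/+ cells, a difference of -1.69 ± 0.16 (SE; adjusted p = 0.00279). Untreated Trib3 signal was already 9.78 and 9.54 in TAp73-/- cells against 7.22 and 7.31 in TAp73+/+ cells. At 4 h it was 10.36 and 10.14 in TAp73-/- against 9.51 and 9.57 in TAp73+/+ cells. Chac1, which encodes a glutathione-degrading enzyme of the same branch, differed in its response by -1.64 ± 0.18 after 4 h (adjusted p = 0.00889) and by -1.32 ± 0.18 after 8 h (adjusted p = 0.0165). Its untreated signal was 11.96 and 11.64 in TAp73-/- cells and 8.69 and 9 in TAp73+/+ cells.

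The cytosolic HSP70 gene Hspa1a fell at 4 h by 0.62 in TAp73-/- cells and rose by 2.04 in TAp73+/+ cells, a difference of -2.66 ± 0.19 (adjusted p = 0.000361). For Hspa1b, its near-identical neighbour, the difference was -2.01 ± 0.25 after 4 h (adjusted p = 0.0128) and was -1.39 ± 0.25 after 8 h (adjusted p = 0.0415). The probes of Hspa1b disagreed in TAp73-/- cells, where its second probe changed by 0.01 at 4 h and -0.03 at 8 h. The first probe changed there by -0.78 and -1.07. In TAp73+/+ cells at 4 h the second rose by 1.12 and the first by 1.23.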

How the results depend on the processing

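With the probe score in the model, 4 of the 10 genes were called between genotypes at 4 h, 4 at 8 h and 0 in untreated cells. With it, 0 were called in TAp73-/- cells at 4 h and from 4 h to 8 h, and 0 in all 3 hypoxia comparisons of TAp73+/+ cells. Calr then changed sign, to -0.50 between genotypes untreated, -0.287 in TAp73+/+ cells at 4 h and 0.115 from 4 h to 8 h. The 1 call in TAp73-/- cells at 4 h (Ero1a) became 0 over the 9 genes without Ero1a, and under quantile normalisation without background correction, the authors' matrix, no detection filter, detection p below 0.01 (which dropped Ero1a), every probe tested on its own, the replicate block, and the intensity trend with robust prior. The 1 call from 4 h to 8 h in TAp73+/+ cells (Calr) became 0 with no detection filter, every probe on its own or the replicate block, and 2 with the trend. The replicate block moved no other count of calls by over 1.5 times.

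Leaving out each array in turn gave, between genotypes, 6 to 8 calls untreated, 5 to 7 at 4 h and 7 to 8 at 8 h. In TAp73-/- cells it gave 0 to 1 at 4 h, 2 to 5 at 8 h and 0 to 5 from 4 h to 8 h, and in TAp73+/+ cells 2 to 5, 1 to 3 and 0 to 1. The differences in response gave 0 throughout, and all these counts include Ero1a. A group left with 1 array is assumed to vary like the others. The slide block was not run, since no slides are named. Signal over background limits Ero1a, and 2 arrays per group limit all values; other causes were not tested.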

Other observations

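Of 12 genes of the ATF4 and CHOP branch, 1 rose at 4 h and 4 at 8 h in TAp73-/- cells, and 6 rose at each time in TAp73+/+ cells, with no falls. Of all genes, 3.13% rose at 4 h and 10.6% at 8 h in TAp73-/- cells, and 12% and 11.6% in TAp73+/+ cells. Ddit3 read 10.13 and 10.03 in untreated TAp73-/- cells, then 10.46 and 10.12 after 4 h, then 12 and 12.07 after 8 h. It rose by 1.95 at 8 h (limma adjusted p = 6.66e-06), while its 4 h change of 0.21 was not called (adjusted p = 0.387). In TAp73+/+ cells it rose by 1.19 after 4 h (adjusted p = 0.000235) and by 1.35 after 8 h (adjusted p = 8.4e-05). The difference in its 4 h response was -0.98 (adjusted p = 0.0588) and in its 8 h response 0.61 (adjusted p = 0.186), neither of which passed.

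Of 11 cytosolic heat shock genes, 3 fell at 4 h and 6 at 8 h in TAp73-/- cells and none rose. In TAp73+/+ cells 3 rose and 1 fell at 4 h, and 1 rose and 1 fell at 8 h. Of all genes, 3.84% fell at 4 h and 10.2% at 8 h in TAp73-/- cells, and 16% and 12.3% in TAp73+/+ cells.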
